A study of Sus scrofa with 92 samples.

Results

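The mitochondrial respiratory chain subunits were taken as all genes whose symbol begins with NDUFA, NDUFB, NDUFC, NDUFS, NDUFV, UQCR, COX4I, COX5, COX6, COX7 or ATP5, or is SDHA, SDHB, SDHC, SDHD, CYC1 or COX8A, without the NDUFAF assembly factors. The names selected 46 of the 25322 identifiers in the count table. Of these, 43 reached a sum of 10 in CPM, which are counts scaled to a common library size, over the libraries used and were tested among 13667 genes. They comprised 19 subunits of complex I, 3 of complex II, 6 of complex III, 9 of complex IV (with NDUFA4, which is now placed there) and 6 of ATP synthase, or complex V. SDHA and NDUFB10 were listed at 0 counts in all 88 libraries used. NDUFA4L2 had 14 counts in 8 libraries, and no identifier carried the name CYC1.

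Complexes I to IV sit in the inner mitochondrial membrane, pass electrons from NADH and succinate to oxygen, all of them but complex II pump protons, and ATP synthase uses the proton gradient to make ATP. Most subunits are encoded in the nucleus and imported, whereas a few core subunits of every complex but complex II are encoded in mitochondrial DNA. Hepatocytes are rich in mitochondria, and a few subunits of complex IV exist as separate liver and muscle isoforms.

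The livers were those of Yorkshire-Landrace pigs that were instrumented, splenectomized, injured at the chest and liver, bled into shock and then resuscitated. There were 18 Fasted (FS) animals and 5 Carbohydrate Prefed (CPF) animals. CPF animals were fasted overnight as well and received a sugar syrup before the operation. Biopsies were compared at Baseline (B), after instrumentation and before injury, and at 2, 8 and 20 hours of full resuscitation (FR2, FR8, FR20), so there was no uninjured group carried through the same anesthesia, and time and treatment cannot be told apart. By the labels 3 FS animals (2, 16 and 20) and 2 CPF animals (7 and 8) died.

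Of 92 libraries, 88 were used: 15 at B and 18 at each later time in FS animals, and 5, 5, 4 and 5 at B, FR2, FR8 and FR20 in CPF animals. They held 6877117 to 16613261 counts on genes, with a median of 12071957.5. The Baseline libraries of FS animals 17, 19 and 21 were left out, because their summed hepatocyte markers reached only 2.93 to 198 CPM against at least 99890 CPM in the 15 Baseline libraries kept. The FR8 library of CPF animal 3, with few counts, was left out too. In the kept libraries the summed hepatocyte markers fell in median from 173500 CPM at B to 133600, 94930 and 66400 CPM at FR2, FR8 and FR20 in FS animals. Albumin alone went from a median of 120800 CPM to 33630 CPM. Medians of TF, TTR, TAT, APOC3 and APOA1 were also lower at FR20 than at B. FGB went the other way, from 4899 to 9285 CPM (220 to 1585 CPM for its second identifier), as did APOB, from 31.3 to 49.3 CPM. CPS1 stood at 2306 CPM at B and 2214 CPM at FR20. Markers of some other cell types moved over the same times in FS animals: in median, those of neutrophils summed to 0.884, 13.6, 7.25 and 6.32 CPM at B, FR2, FR8 and FR20, those of cholangiocytes to 36.8, 63.8, 48.7 and 118 CPM, and those of stellate cells and fibroblasts to 827, 483, 476 and 1034 CPM. The 2 cholangiocyte markers differed: SPP1 went from 28.6 CPM at B to 98.2 CPM at FR20 and EPCAM from 10.4 to 13.3 CPM. PLIN1, the only adipocyte marker with counts, stood at 1.6 CPM at B and 5.97 CPM at FR20, and endothelial markers summed to 112 and 157 CPM. T and NK cell markers summed to 20.0 CPM at B and 20.9 CPM at FR20, and macrophage markers to 1280 and 1078 CPM. The part of these cell types in the results was not tested. In a biopsy, fewer cells of a type and less RNA per cell cannot be told apart. In FS animals 10, 17, 19 and 21 albumin ran against the FS medians of 87380 CPM at FR2 and 50060 CPM at FR8. It stood at 34090, 41461, 52964 and 47566 CPM at FR2 and at 112491, 107406, 92098 and 116979 CPM at FR8. Animals 17, 19 and 21 are those without a Baseline library here, and animal 10 had 59451 CPM at B. Their libraries were used under their time labels, and why they differed was not tested. Among the kept libraries, the FR2 and FR8 libraries of FS animal 11 stood apart by genes without counts. There 236 and 233 of 2194 well expressed genes had 0 counts, among them SDHD, NDUFA4 and all 13 mitochondrially encoded subunits. None of the 2194 did in the other libraries used. By chromosome, all 92 of the well expressed genes on chromosome 9 and all 57 on X were at 0 in both. On chromosome 8 it was 20 and 17 of 55. Why these genes had 0 counts was not tested. The results for SDHD, NDUFA4 and the mitochondrially encoded subunits are given with and without these libraries, as are counts of other mitochondrial genes that shifted without them. Leaving these libraries out was not planned and was chosen after seeing the data.

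Changes were mostly small and of both signs. In FS animals 15 of 43 subunits passed the test at FR2 against B (3 rose, 12 fell), 16 at FR8 (8 rose, 8 fell) and 17 at FR20 (1 rose, 16 fell), with trimmed mean of M-values (TMM) scaling. Passing means an adjusted p under 0.05 over all genes in edgeR's quasi-likelihood test with a term for each animal. Over all genes tested 41.4%, 39.3% and 33.8% passed at these times, so that the subunits' 34.9%, 37.2% and 39.5% lay near the background. Of all genes 20.3%, 19.9% and 17.4% rose and 21.1%, 19.5% and 16.4% fell with TMM scaling. At an unadjusted p under 0.05 there were 21, 23 and 19 subunits, beside 48.8%, 47.6% and 43.5% of all genes. The median log2 change of the subunits was −0.15, −0.05 and −0.16 at FR2, FR8 and FR20, and that of all genes −0.04, −0.0016 and 0.04. The 3 changes share the Baseline libraries and are not independent of each other. With a change of 2-fold or more as well, COX7A1 was the 1 subunit that passed, at FR8 and FR20 in FS animals and at FR8 in CPF animals. Of all genes 11%, 11.8% and 9.94% did so at FR2, FR8 and FR20 in FS animals and 2.41%, 8.83% and 0.702% in CPF animals.

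**Figure D1:**
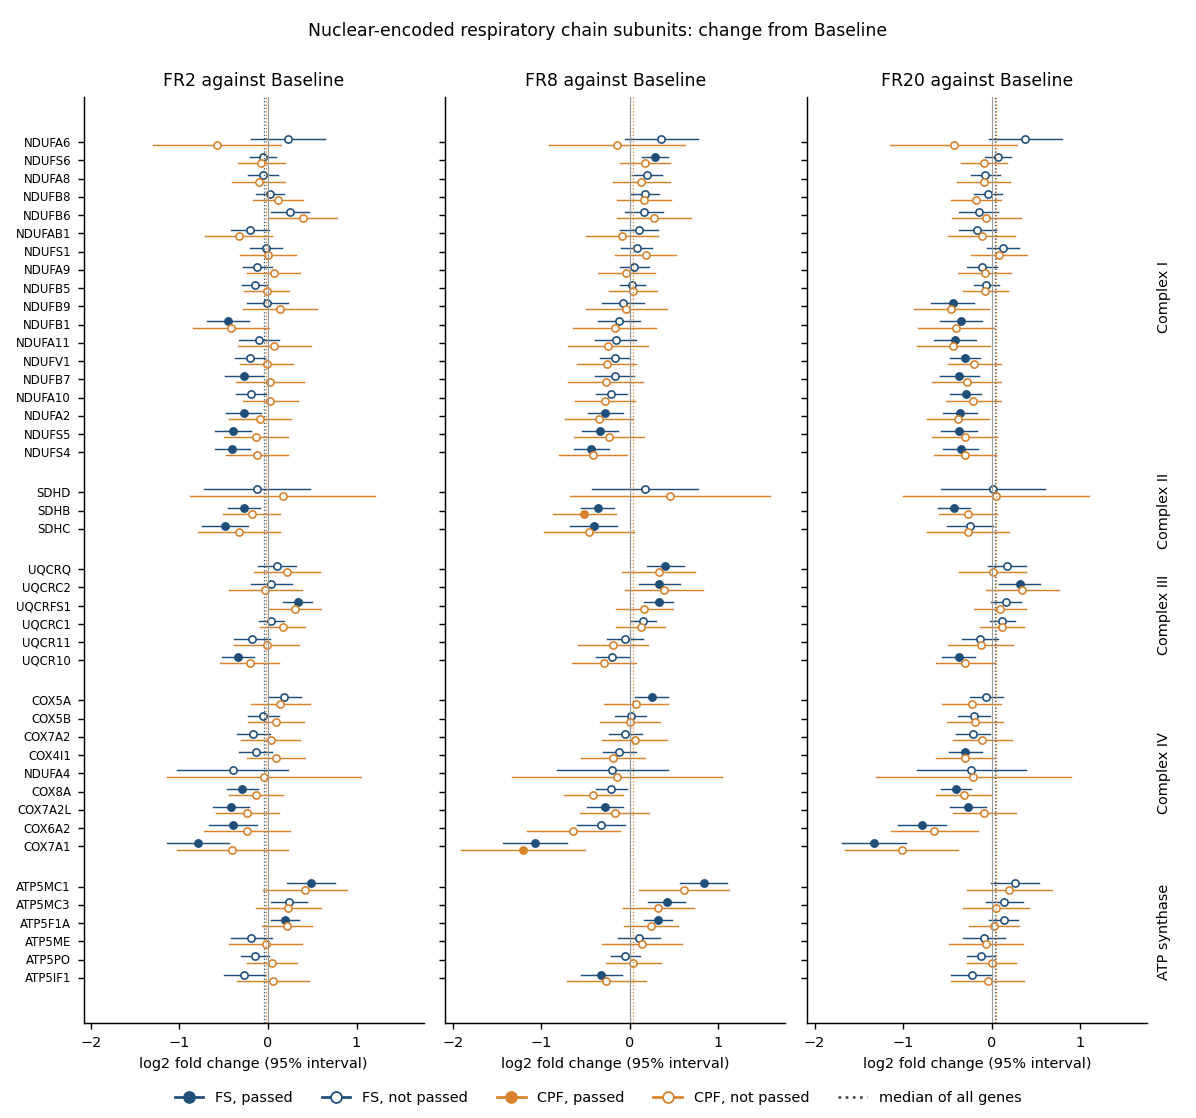
Log2 fold change from Baseline of the subunits at FR2, FR8 and FR20 (x axis) with 95% intervals, ordered by complex, in FS and CPF animals with TMM scaling. Filled points passed the test and the dotted line is the median gene. COX7A1 is the lowest in each FS panel and ATP5MC1 the highest at FR2 and FR8, and most of the small falls at FR20 no longer pass when library totals alone are used, with values just above 0.

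Which changes passed depended on the scaling. Other scaling factors move all genes by nearly the same amount. The distance of the subunits from the median gene is therefore nearly fixed in advance and does not test the scaling. With library totals alone, the median of all genes moved to 0.15, 0.25 and 0.45 at FR2, FR8 and FR20 in FS animals, and the subunits' calls became 8 up and 3 down, 22 up and 1 down, and 23 up and 2 down, where 27.6%, 33.4% and 48% of all genes rose and 11.2%, 10.6% and 5.76% fell. Of the 16 subunits that fell at FR20 with TMM scaling, 2 still fell with library totals, 0 rose and 14 did not pass, 12 of these with values above 0. Of the calls over all genes, 49.1%, 50.5% and 51.5% were rises with TMM scaling and 71.1%, 75.9% and 89.3% with library totals. The median of the subunits minus that of all genes was −0.10, −0.05 and −0.21 with TMM scaling and −0.09, −0.04 and −0.20 with library totals. At FR20, 32 of the 43 subunits lay below the median gene with either scaling, which follows from that common shift. Albumin and the summed hepatocyte markers fell in median over the same times, as given above, and their part in the difference between scalings was not tested.

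**Figure D2:**
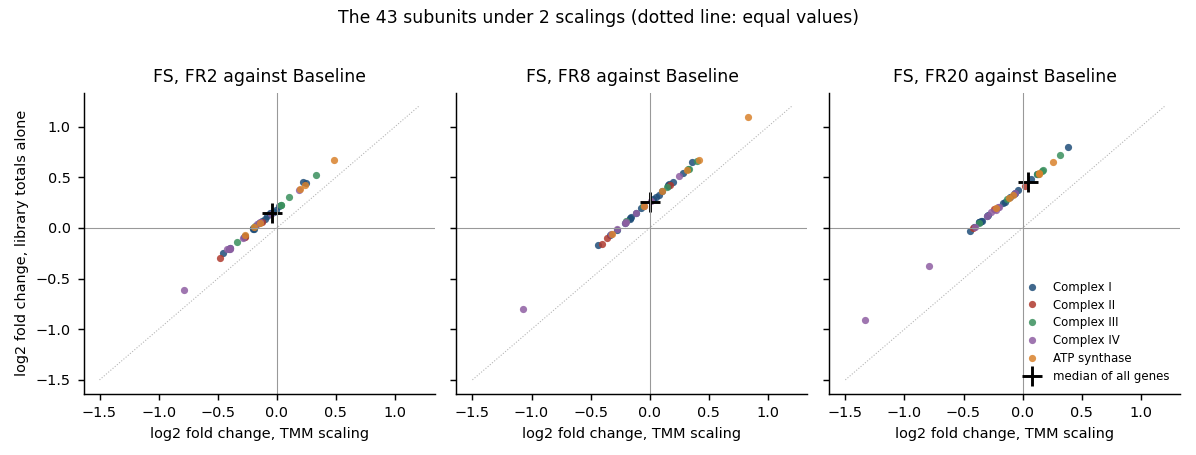
Log2 fold change from Baseline of each of the 43 subunits in FS animals with TMM scaling (x axis) and with library totals alone (y axis), 1 panel per time; the cross marks the median gene. The points shift upward together, so that many values below 0 at FR20 on the x axis are at or above 0 on the y axis, while COX7A1 stays a fall and ATP5MC1 a rise on both.

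As a plain share of library counts, the median of the subunits was higher at FR8 and FR20 than at Baseline. With library totals the median gene rose as well in FS animals, by a log2 of 0.25 at FR8 and 0.45 at FR20. The median subunit rose by 0.21 and 0.25. The later FS shares include animals 17, 19 and 21, which have no Baseline library here. In FS animals the 43 subunits held 0.397% to 0.569% of counts at B (median 0.511%), 0.424% to 0.646% at FR2 (0.507%), 0.453% to 0.766% at FR8 (0.577%) and 0.427% to 0.688% at FR20 (0.596%). In CPF animals the medians were 0.498%, 0.490%, 0.617% and 0.606%. Without the libraries of animal 11 the FS medians at FR2 and FR8 were 0.505% and 0.575%. The FS ranges overlapped at all times. The median share of complex V went from 0.125% at B to 0.142%, 0.172% and 0.165% in FS animals, and that of complex III from 0.0669% to 0.0786%, 0.0879% and 0.0962%. Complex IV held a median of 0.122% at B and 0.125% at FR20.

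**Figure D3:**
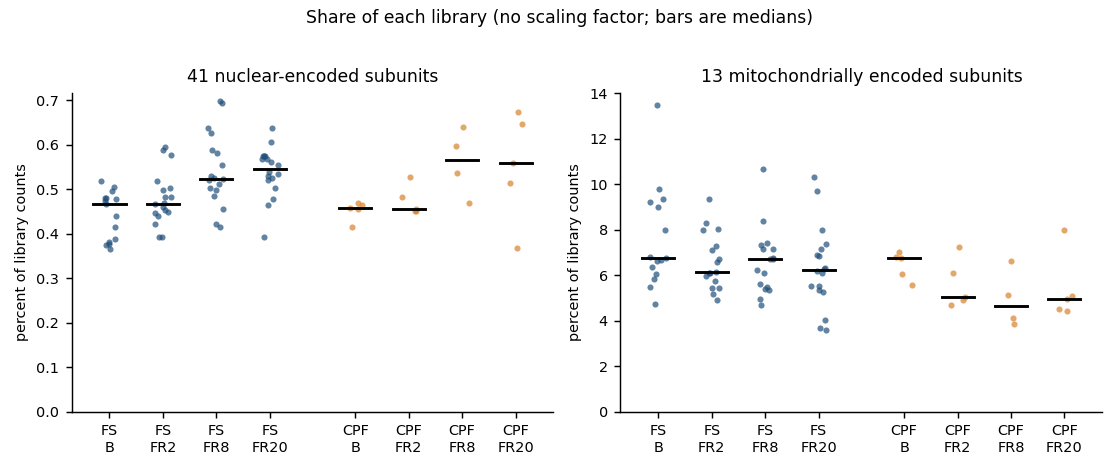
Share of all counts of a library (y axis, percent) held by the nuclear subunits other than SDHD and NDUFA4 and by the 13 mitochondrially encoded subunits, by time and feeding group, 1 point per biopsy with the median as a bar. The FR2 and FR8 libraries of FS animal 11 are left out of the panel of mitochondrially encoded subunits. The median nuclear share is higher at FR8 and FR20 than at B in both groups, whereas that of the mitochondrially encoded subunits is not. With library totals the median of all genes was also higher in FS animals, by a log2 of 0.25 at FR8 and 0.45 at FR20.

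Complex I, the NADH dehydrogenase through which most electrons enter, had 19 subunits, of which 0 rose and 5 fell at FR2, 1 rose and 3 fell at FR8, and 0 rose and 9 fell at FR20 in FS animals. With library totals alone the same counts were 2 and 1, 10 and 0, and 10 and 0. NDUFS4, an accessory subunit that is needed for a stable and active complex, went from a median of 95.1 CPM at B (57.7 to 135) to 69.7 CPM at FR2 (42.4 to 95.6), 64.5 CPM at FR8 (43.6 to 122) and 73.1 CPM at FR20 (49.1 to 95.9). The groups overlapped, and NDUFS4 fell in 14 of 15 animals at FR2. Its log2 fold changes were −0.40 (SE 0.10, adjusted p = 0.000875), −0.44 (SE 0.10, adjusted p = 0.000397) and −0.35 (SE 0.10, adjusted p = 0.00471), and with library totals −0.21, −0.17 and 0.07, of which the FR2 value passed. NDUFS5, a small accessory subunit, fell by 0.39, 0.34 and 0.37 on the log2 scale (adjusted p = 0.00169, 0.00732 and 0.00447), which became −0.19, −0.07 and 0.06 with library totals. NDUFA2 fell by 0.28, 0.28 and 0.36 (adjusted p = 0.0211, 0.0217 and 0.00395), which became −0.09, −0.02 and 0.06 with library totals. NDUFB1 fell at FR2 (log2 −0.45, adjusted p = 0.0021) and at FR20 (−0.35, adjusted p = 0.0225, and 0.07 with library totals).

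NDUFB9, an accessory subunit of the membrane arm and the complex I member with the most counts, fell late. Its FS median was 162.8 CPM at B (112.5 to 275.7), 178.4 CPM at FR2 (121.9 to 299.3), 160.9 CPM at FR8 (113.7 to 275.8) and 121.4 CPM at FR20 (84.96 to 281.8). Only the FR20 change passed (log2 −0.44, SE 0.12, adjusted p = 0.00347, lower in 14 of 15 animals), and with library totals it was −0.03. NDUFS6, an accessory subunit with a zinc site, was the 1 complex I member that rose at FR8 (log2 0.28, SE 0.07, adjusted p = 0.00204, 13 of 15 animals), by 0.55 with library totals. NDUFA6 had the highest estimate of the complex at FR8 (0.36), but its libraries ranged from 0.152 to 10.4 CPM within that group and it did not pass (adjusted p = 0.174). The core members NDUFS1 and NDUFV1 changed by 0.08 and −0.17 at FR8 and did not pass, and NDUFV1 passed at FR20 (−0.30, adjusted p = 0.00549, and 0.12 with library totals).

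Complex II, succinate dehydrogenase, also works in the citric acid cycle. Of its 3 measured subunits 0 rose at the 3 times and 2, 2 and 1 fell in FS animals, and with library totals 0 rose and 1, 0 and 0 fell. SDHB, its iron-sulfur subunit, had a median of 241.6 CPM at B in FS animals (165.6 to 306.9), 216.7 CPM at FR2 (108.3 to 254), 191.1 CPM at FR8 (121.2 to 328.3) and 189.8 CPM at FR20 (123.3 to 249.3). In CPF animals SDHB stood at 253.7, 181.1, 204.6, 209.9 and 227.4 CPM at B and at 176.0, 117.3, 142.3 and 157.5 CPM at FR8. Every CPF value at FR8 lay below every CPF value at B, whereas the FS ranges overlapped. SDHB fell in FS animals by 0.27, 0.36 and 0.42 on the log2 scale at FR2, FR8 and FR20 (SE 0.09 each, adjusted p = 0.0143, 0.00146 and 0.000296), and in CPF animals by 0.51 at FR8 (SE 0.18, adjusted p = 0.0481, 4 of 4 animals). With library totals the FS values were −0.09, −0.10 and −0.0025 and the CPF value was −0.23, and none of them passed. The CPF value was −0.54 with no animal term and did not pass there either. SDHC, a membrane anchor, fell by 0.48 and 0.41 at FR2 and FR8 (adjusted p = 0.00246 and 0.0139), and with library totals its changes were −0.30, which passed, and −0.15, which did not.

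SDHD, the other membrane anchor, went the other way. Without the libraries of animal 11, its FS median was 181.3 CPM at B (150.8 to 223), 183.4 CPM at FR2 (143.6 to 251.7), 234.4 CPM at FR8 (170.9 to 269.1) and 181.9 CPM at FR20 (157.5 to 228.4). In CPF animals it was 193.7, 142.4, 163.0, 184.4 and 191.4 CPM at B and 231.3, 205.1, 212.4 and 301.9 CPM at FR8, with no overlap. SDHD rose at FR8 in FS animals by a log2 of 0.36 (SE 0.07, adjusted p = 0.000109) and in CPF animals by 0.45 (SE 0.14, adjusted p = 0.0216). With the 2 libraries at 0 kept, as planned, the FS value was 0.17 with an SE of 0.30. The CPF value was then 0.45 with an SE of 0.58, and neither passed.

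Complex III passes electrons from ubiquinol to cytochrome c and had 1 rise and 1 fall at FR2, 3 rises and 0 falls at FR8, and 1 rise and 1 fall at FR20 among 6 subunits in FS animals. With library totals 2, 4 and 5 rose and 0 fell. UQCRFS1, the Rieske iron-sulfur protein, had a median of 169.9 CPM at B in FS animals (145 to 217), 227.1 CPM at FR2 (141.3 to 290.1), 225.4 CPM at FR8 (175.4 to 274.1) and 196.2 CPM at FR20 (149.3 to 260.6). The groups overlapped, but within animals UQCRFS1 was higher in 15 of 15 at FR2 and in 15 of 15 at FR8. It rose by a log2 of 0.33 (SE 0.08, adjusted p = 0.00108) and 0.32 (SE 0.08, adjusted p = 0.00154), or 0.52 and 0.58 with library totals. UQCRQ, a small subunit that touches cytochrome b, went from a median of 125.2 CPM at B to 168.7 CPM at FR8 and rose by 0.40 (SE 0.11, adjusted p = 0.00217, 13 of 15 animals). UQCRC2, a core protein, rose at FR8 by 0.33 (adjusted p = 0.0202) and at FR20 by 0.32 (adjusted p = 0.03). It was the 1 subunit of all 43 that rose at FR20 with TMM scaling, and with the 3 left-out Baseline libraries kept its changes were −0.0012 and −0.0005. UQCR10 fell at FR2 and FR20 (log2 −0.34 and −0.37, adjusted p = 0.00278 and 0.00159), and with library totals it was −0.14 and 0.05. UQCRC1, with the most counts of the complex, changed by 0.04, 0.15 and 0.12 and did not pass.

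Complex IV, cytochrome c oxidase, hands the electrons to oxygen. Of its 9 subunits 0, 1 and 0 rose and 4, 2 and 5 fell at FR2, FR8 and FR20 in FS animals, and with library totals 1, 3 and 3 rose and 1, 1 and 2 fell. COX7A1, the isoform known from heart and skeletal muscle, went in FS animals from a median of 51.1 CPM at B (30.8 to 107) to 31.6 CPM at FR2 (21.3 to 67.7), 26.9 CPM at FR8 (12.9 to 79.2) and 23.6 CPM at FR20 (7.55 to 58.8). In CPF animals COX7A1 stood at 53.01, 61.79, 40.73, 62.05 and 70.55 CPM at B, at 41.8, 55.11, 33.16, 30.85 and 57.37 CPM at FR2, at 39.9, 15.51, 16.54 and 33.8 CPM at FR8 and at 23.49, 26.73, 18.06, 49.97 and 24.14 CPM at FR20. The FS ranges overlapped at each time, whereas all 4 CPF values at FR8 lay below all 5 at B.

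COX7A1 fell in FS animals by 0.79 (SE 0.18, adjusted p = 0.000336), 1.08 (SE 0.18, adjusted p = 6.56e-06) and 1.33 (SE 0.19, adjusted p = 1.11e-07) on the log2 scale at FR2, FR8 and FR20, down to 0.397 of its Baseline level, and it was lower in 14 of 15 animals each time. In CPF animals it fell by 1.21 at FR8 (SE 0.36, adjusted p = 0.0192, 4 of 4 animals), and the changes of −0.40 at FR2 and −1.02 at FR20 did not pass (adjusted p = 0.508 and 0.1). With library totals COX7A1 still fell in FS animals, by 0.61, 0.80 and 0.91. COX7A2, the isoform of liver and most other tissues, changed by −0.16, −0.05 and −0.21 in FS animals, and none of these passed. Its FS medians were 110.9, 99.5, 100.6 and 93.4 CPM. COX7A2L, a related protein that joins complexes III and IV, fell at the 3 times (log2 −0.42, −0.28 and −0.27, adjusted p = 0.000796, 0.0246 and 0.0355), and with library totals it was −0.21, −0.0098 and 0.16.

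COX6A2, another muscle isoform, had few counts here, with FS medians of 10.6, 9.24, 9.28 and 5.86 CPM and an FS range of 5.48 to 21.3 CPM at B and 2.99 to 12.9 CPM at FR20. It fell by 0.40 at FR2 (adjusted p = 0.0152) and by 0.79 at FR20 (SE 0.14, adjusted p = 8.48e-06, lower in 15 of 15 animals). With library totals its changes were −0.20, which did not pass, and −0.37, which did. The names COX7A1 and COX6A2 come from the study's own tables of changed genes, which were made from these samples, so their selection is not independent evidence of a change. In the libraries used, the striated muscle markers, of which 6 of 13 had an identifier, summed to 13.2 to 57.1 CPM at B, 9.58 to 131 CPM at FR2, 7.53 to 115 CPM at FR8 and 10.5 to 95.4 CPM at FR20 in FS animals, with medians of 17.5, 14.4, 13.4 and 18.1 CPM. MYH2 was at 0 in 71 and MYL1 at 0 in 68 of the 88 libraries, whereas desmin, which smooth muscle and stellate cells also make, was at 0 in none. Desmin made up most of the sum, with a median of 15.7 CPM at B. The part of muscle cells in the level of COX7A1 was not tested.

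**Figure D4:**
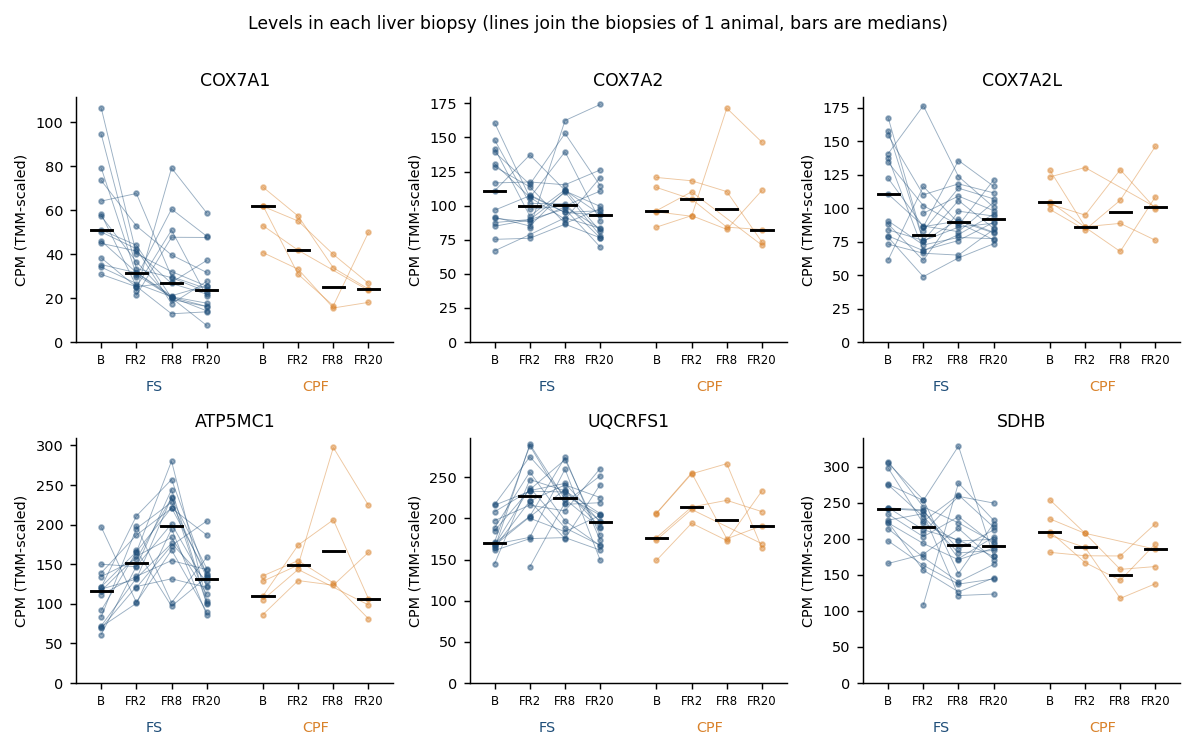
TMM-scaled CPM (y axis) of COX7A1, COX7A2, COX7A2L, ATP5MC1, UQCRFS1 and SDHB in each biopsy at B, FR2, FR8 and FR20, with lines joining the biopsies of 1 animal, FS on the left and CPF on the right of each panel. COX7A1 drops in nearly all animals while no change of COX7A2 passed, and the FS median of ATP5MC1 is highest at FR8; with library totals alone COX7A1 still falls and the SDHB fall is nearly lost at FR20.

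Of the other complex IV subunits, COX5A rose at FR8 (log2 0.25, adjusted p = 0.0319, 14 of 15 animals), and by 0.51 with library totals, but with the 3 left-out Baseline libraries kept its change was −0.01. COX8A fell at FR2 and FR20 (−0.29 and −0.41, adjusted p = 0.00591 and 0.000251), in 15 of 15 animals at FR20, and with library totals its changes were −0.10 and 0.0094. COX4I1, which had the most counts of the complex, fell at FR20 (−0.30, adjusted p = 0.0116, and 0.11 with library totals). NDUFA4 changed by −0.21, −0.01 and −0.21 without the libraries of animal 11 and by −0.40, −0.20 and −0.23 with them, and did not pass.

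Of the 6 subunits of ATP synthase 2 rose and 0 fell at FR2, 3 rose and 1 fell at FR8, and 0 passed at FR20 in FS animals, where 0 also had an unadjusted p under 0.05. With library totals 3, 5 and 5 rose and 0 fell. ATP5MC1 encodes subunit c of the membrane ring, which is made from several genes. Its FS median was 116.3 CPM at B (61.3 to 197), 151.9 CPM at FR2 (101 to 211), 197.7 CPM at FR8 (97.0 to 280) and 130.9 CPM at FR20 (86.2 to 205). In CPF animals ATP5MC1 stood at 105.3, 128.6, 86.51, 135.4 and 110.1 CPM at B and at 297.4, 123.6, 126.5 and 206.1 CPM at FR8. The ranges overlapped in both groups. ATP5MC1 rose in FS animals by 0.48 at FR2 (SE 0.14, adjusted p = 0.00357) and by 0.83 at FR8 (SE 0.14, adjusted p = 3.22e-06, 14 of 15 animals), or by 0.67 and 1.09 with library totals. The change at FR20 was 0.26 (adjusted p = 0.139) with TMM scaling and 0.65 with library totals.

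ATP5MC3, another gene for subunit c, rose at FR8 by 0.42 (SE 0.10, adjusted p = 0.00114, 14 of 15 animals) and stood at 0.24 at FR2 and 0.14 at FR20, where it did not pass. ATP5F1A, the alpha subunit of the catalytic head and the member of the complex with the most counts, rose by 0.20 at FR2 (adjusted p = 0.0466) and by 0.32 at FR8 (SE 0.08, adjusted p = 0.00127, 14 of 15 animals). With library totals these were 0.38 and 0.58. ATP5IF1, the inhibitor that stops ATP synthase from running in reverse, was the 1 member of the group that fell at FR8 (−0.32, adjusted p = 0.0247, and −0.06 with library totals). Reads of the subunit c genes, whose mature proteins are the same, may have been shared or dropped in counting, since the counting mode is not stated.

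Later times were also compared with each other within FS animals. These steps include FS animals 10, 17, 19 and 21, whose albumin was higher at FR8 than at FR2. From FR2 to FR8, 10 of 43 passed and all 10 rose, where 28.4% of all genes passed, 14.5% rose and 13.9% fell. Among them were NDUFA8, NDUFAB1, NDUFB1, NDUFB5, NDUFS6, UQCRC2, UQCRQ, ATP5MC1 and ATP5ME, and all 10 also passed with library totals. NDUFS6 had the smallest p (log2 0.34, SE 0.07, adjusted p = 0.000302, 14 of 18 animals). From FR8 to FR20, 5 passed and all 5 fell, where 6.39% of all genes passed, 3.07% rose and 3.33% fell. With a change of 2-fold as well 0 subunits passed in either step, beside 5.96% and 1.46% of all genes, and at an unadjusted p under 0.05 there were 11 and 18 subunits, beside 39.3% and 21.7% of all genes. ATP5MC1 fell by 0.57 (SE 0.13, adjusted p = 0.00344, 15 of 18 animals), COX6A2 by 0.46 (adjusted p = 0.0181), NDUFB9 by 0.37 (adjusted p = 0.0368), COX5A by 0.31 (adjusted p = 0.0247) and NDUFA8 by 0.27 (adjusted p = 0.03). Of these ATP5MC1 alone passed with library totals. The count from FR2 to FR8 was 4 without FS animal 9 or 16 and 5 without FS animal 4. The count from FR8 to FR20 was 1 without FS animal 14 or 16, 2 without 5, 6 or 10, 3 without 4 or 22, 8 without 19 and 9 without 21.

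In CPF animals 0 of 43 subunits passed at FR2, 2 fell at FR8 (COX7A1 and SDHB) and 0 passed at FR20, where 3.41%, 13.3% and 0.893% of all genes passed and, at FR8, 6.31% rose and 6.99% fell. At an unadjusted p under 0.05 there were 1, 6 and 6 subunits in edgeR, beside 20.0%, 28.4% and 16.5% of all genes, and DESeq2 gave 0, 2 and 0 at the adjusted threshold. The median SE was 0.18, 0.19 and 0.18 against 0.10 in FS animals. The count at FR8 was 0 without CPF animal 8, 13 or 18, 1 without CPF animal 3 or without FS animal 1, 2, 5, 14, 16, 22 or 23, and 4 without CPF animal 7. At FR20 it was 1 without CPF animal 13.

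The question of feeding was put to the difference between the CPF and FS changes. In edgeR 0 of 43 subunits passed at FR2, FR8 and FR20, where 0.0% of all genes passed, DESeq2 gave 0 as well, and 0 subunits had an unadjusted p under 0.05, beside 2.9%, 3.42% and 3.81% of all genes. NDUFA6 had the smallest p at each time, with differences of −0.80 (95% interval −1.63 to 0.03), −0.50 (−1.37 to 0.38) and −0.81 (−1.64 to 0.02). Next at FR2 came NDUFS4 (0.27), ATP5IF1 (0.32), NDUFB7 (0.30) and NDUFS5 (0.26), at FR8 COX8A (−0.20), COX6A2 (−0.31), UQCRFS1 (−0.16) and COX5A (−0.18), and at FR20 NDUFS6 (−0.16), COX7A2L (0.19), NDUFB8 (−0.14) and COX7A1 (0.32). For COX7A1 the interval of the difference at FR8 ran from −0.91 to 0.65 and for ATP5MC1 from −0.80 to 0.36, so that these intervals still hold sizable differences in either direction.

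The libraries of CPF and FS animals were also set against each other at each time. In edgeR 0 subunits passed at B, FR2, FR8 and FR20, where 0.0342%, 0.0%, 0.0% and 0.0% of all genes passed. NDUFS6 at B was the 1 subunit with an unadjusted p under 0.05 (CPF higher by a log2 of 0.28, adjusted p = 0.626), where 7.66%, 5.58%, 5.17% and 3.25% of all genes had one at the 4 times. Animals that died were set against those that lived, with a term for feeding, and 0 subunits passed at B or at FR20, where 0.0% of all genes did. At an unadjusted p under 0.05 there were 0 subunits at B and 3 at FR20, namely ATP5ME, NDUFS1 and ATP5MC3, each higher in the animals that died (log2 0.43, 0.33 and 0.36, adjusted p = 0.904 each), beside 8.54% and 5.22% of all genes. DESeq2 gave 0 in each of these comparisons.

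The 13 subunits encoded in mitochondrial DNA complete complexes I, III, IV and V. They fell in FS animals once the libraries of animal 11 were left out, a setting chosen after seeing the data. Without the libraries of animal 11, 10, 13 and 13 of them fell at FR2, FR8 and FR20 in FS animals and 0 rose, where 21.3%, 19.2% and 17.7% of all genes fell, and their median log2 changes were −0.43, −0.53 and −0.74. With library totals on the same libraries 4, 5 and 11 fell, 0 rose, and the medians were −0.24, −0.25 and −0.33, below 0 as with TMM scaling. Of all genes 11.4%, 10.4% and 6.26% fell and 28.7%, 35.1% and 50.2% rose in that setting. With the 2 libraries of animal 11 kept, as planned, in which these genes have 0 counts, 0, 0 and 1 passed.

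ND1, a core subunit of complex I, had a median of 3765 CPM at B in FS animals (1706 to 8177), 2972 CPM at FR2 (1693 to 5281), 2630 CPM at FR8 (1818 to 7809) and 2579 CPM at FR20 (1166 to 5817), and fell by 0.88 on the log2 scale at FR20 (SE 0.16, adjusted p = 1.54e-05). COX1, the catalytic subunit of complex IV, had medians of 19500, 18650, 17510 and 15270 CPM and fell by 0.66 at FR20 (SE 0.14, adjusted p = 0.000211). The groups overlapped for both. In CPF animals 4 of the 13 (ND1, ND6, CYTB and ATP6) fell at FR8 without the libraries of animal 11, with changes of −0.91, −1.04, −0.88 and −0.82, where 8.11% of all genes fell. With those libraries kept 0 of the 13 passed there in edgeR, and 0 in DESeq2. ND1 stood at 3328, 3438, 2399, 3801 and 4186 CPM at B in CPF animals and at 3756, 1015, 1277 and 1985 CPM at FR8, of which the highest was in animal 7. As a share of all counts, the 13 held a median of 6.76%, 6.14%, 6.71% and 6.24% in FS animals and 6.75%, 5.05%, 4.63% and 4.94% in CPF animals, and the ranges overlapped. Libraries were made from polyadenylated RNA with a kit that does not mark strand, so that reads of ND6, which lies on the opposite strand, cannot be told from those of its neighbours.

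The other genes of mitochondria were grouped by function. The 43 measured proteins of the mitochondrial ribosome, which translates the mitochondrially encoded subunits, had 10 rises and 5 falls at FR2, 19 and 0 at FR8 and 12 and 3 at FR20 in FS animals, with medians of 0.12, 0.17 and 0.15, and 22, 34 and 36 rises with 0 falls with library totals, where 27.6%, 33.4% and 48% of all genes rose. MRPL35 had the highest change at FR8 (0.79, adjusted p = 1.08e-06, 15 of 15 animals) and MRPS9 the lowest (−0.21, adjusted p = 0.113). Of 15 genes for protein import, 9, 6 and 4 rose and 0 fell (10 rose at each time with library totals), with TOMM40L highest at FR8 (1.45, adjusted p = 7.58e-06) and TIMM17B lowest (−0.53, adjusted p = 0.128). With the libraries of animal 11 left out, import had 10, 8 and 4 rises and 1 fall at each time. In that setting 21.6%, 21.1% and 18.8% of all genes rose and 21.3%, 19.2% and 17.7% fell. TIMM17B then stood at −0.34 at FR8, and the mitochondrial ribosome had 11 rises and 7 falls at FR2. TOMM40, the channel of the outer membrane, rose by 1.02 and 1.04 at FR2 and FR8 and by 0.54 at FR20.

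Of 22 assembly factors 2 rose and 3 fell at FR2, 9 rose and 2 fell at FR8, and 5 rose and 3 fell at FR20. With the libraries of animal 11 left out, 5 rose and 4 fell at FR20. COX17, a copper chaperone for complex IV, was highest at FR8 (0.81, adjusted p = 8.6e-05) and ACAD9, a complex I assembly factor, lowest (−0.86, adjusted p = 2.86e-05). Complex IV factors COX15, COX16, COX17 and COX18 rose at FR8, as did TMEM70, an ATP synthase factor (0.71, 15 of 15 animals). With library totals 15 of the 22 rose at FR8 and 1 fell.

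**Figure D5:**
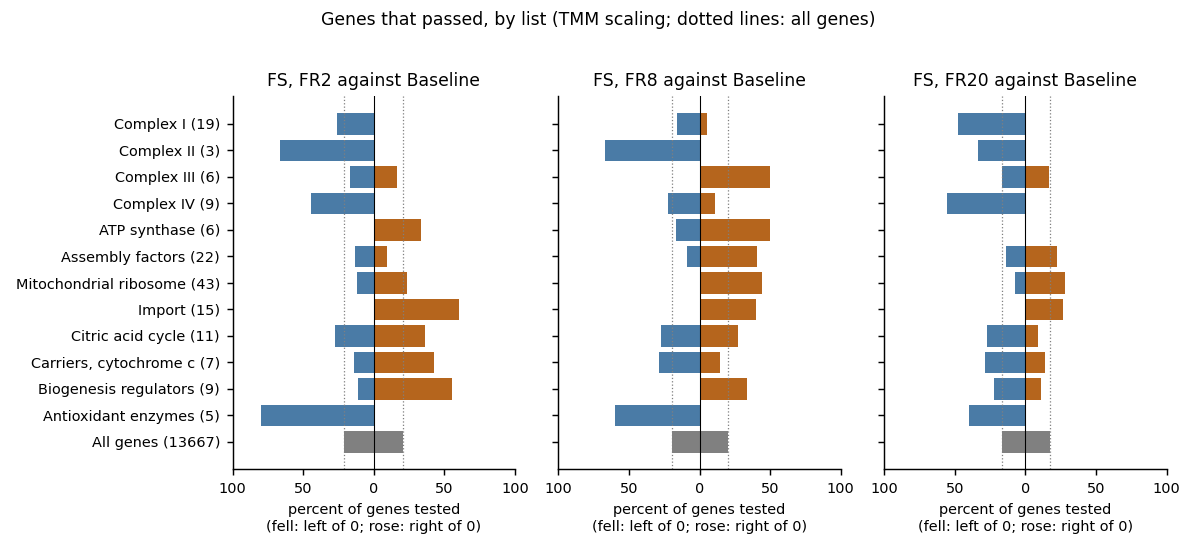
Percent of the genes of each list that rose and fell from Baseline in FS animals at FR2, FR8 and FR20, with TMM scaling, beside the same for all genes tested (dotted lines), with falls left of 0 and rises right of 0. At FR20 most genes of most lists passed in neither direction. At FR2 most genes of complex II and of the import, citric acid cycle, carrier, regulator and antioxidant lists passed. Those of the mitochondrial ribosome and import lists that passed mostly rose. Complexes I, II and IV and the antioxidant enzymes, by contrast, show falls and no rises at FR2 and FR20. With library totals alone complex I had 0 falls and 10 rises at FR20, complex II 0 and 0, complex IV 2 falls and 3 rises, and the antioxidant enzymes 0 falls and 1 rise.

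Cytochrome c (CYCS), the carrier between complexes III and IV, went from a median of 147.7 CPM at B in FS animals (77.4 to 269) to 365 CPM at FR2 (75.5 to 639), 213.6 CPM at FR8 (117 to 411) and 103.9 CPM at FR20 (57.7 to 707). It rose by 1.21 at FR2 (SE 0.26, adjusted p = 0.000146, 14 of 15 animals). In CPF animals CYCS stood at 140.2, 148.9, 151.1, 194.2 and 168.4 CPM at B and at 315.0, 505.9, 351.5, 401.1 and 400.0 CPM at FR2, without overlap, and its change of 1.27 had an adjusted p of 0.102. SLC25A4, the adenine nucleotide carrier known from heart and muscle, went from a median of 633 CPM at B to 309.2, 193.4 and 235.3 CPM in FS animals and fell by 0.98, 1.30 and 1.40 (adjusted p = 0.000237, 1.17e-05 and 1.83e-06), beside −0.79, −1.08 and −1.33 for COX7A1. In CPF animals SLC25A4 fell by 1.53 at FR8 (adjusted p = 0.0169).

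Among 9 measured regulators of mitochondrial genes 5, 3 and 1 rose and 1, 0 and 2 fell in FS animals. ESRRA, a nuclear receptor for respiratory genes, rose by 0.55, 0.86 and 0.45 (adjusted p = 0.000685, 1.25e-06 and 0.00672) and in CPF animals by 1.12 at FR8 (adjusted p = 0.00386, 4 of 4 animals). NRF1, a transcription factor for respiratory subunits, rose at FR2 (0.69, adjusted p = 0.000272, 15 of 15 animals), and its changes of 0.13 and 0.06 at FR8 and FR20 did not pass. TFB2M, a factor for mitochondrial transcription, was lowest at FR8 (−0.48, adjusted p = 0.0666) and fell at FR20 (−0.82, adjusted p = 0.00221). PPARGC1A was listed at 0, and no identifier carried the names TFAM or CS. With library totals 5 regulators rose at each time and 0 fell. Of 11 citric acid cycle genes 4, 3 and 1 rose and 3 fell at each time. With the libraries of animal 11 left out, the rises were the same and 4 fell at each time. FH, fumarase, was lowest at FR8 (−0.88, adjusted p = 2.79e-05) and SUCLA2 highest (0.51, adjusted p = 0.0037). Of 5 antioxidant enzymes 0 rose and 4, 3 and 2 fell, with TXNRD2 lowest at FR8 (−0.66, adjusted p = 0.00104) and GPX4 highest (0.08, adjusted p = 0.454). With library totals 0, 1 and 1 rose and 1, 0 and 0 fell. Of 7 carriers, CYCS among them, 3, 1 and 1 rose and 1, 2 and 2 fell, and VDAC3 was highest at FR8 (0.78, adjusted p = 2.69e-05) and SLC25A4 lowest. With the libraries of animal 11 left out, the carriers had 4, 2 and 2 rises and the same falls.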

How the data were processed

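Liver RNA enriched for polyadenylated transcripts was sequenced. Per the labels, the authors used CASAVA 1.8.2, TopHat 1.5.0, SAMtools, HTSeq and edgeR 3.2.4, and they deposited raw counts per gene for each library. The counting mode is not given in the sources used here. The table held 25322 identifiers. Symbols were found for 12504 of them, 11804 in a gene name table and 700 in the study's tables of changed genes, whose fold changes and p-values were not used.

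The 88 libraries were scaled by TMM and fitted in edgeR 4.0.16 (R 4.3.3) by the quasi-likelihood F test with terms for animal and for time within each feeding group, over the 13667 genes whose CPM summed to 10 or more. Comparisons between animals at 1 time had no animal term. P-values were adjusted by the Benjamini-Hochberg method over all genes tested, two-sided. Levels are CPM on TMM-scaled library sizes. Animal numbers, given in the labels, pair the libraries: residuals of the same animal correlated with a median of 0.21, against −0.026 between different animals of a group. No libraries were identical. Alternatives were DESeq2 1.42.0, other scalings and filters, a likelihood ratio test, no animal term, other libraries and leaving out each animal. Fits were tested on simulated data first.

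The named genes were the subunit with the most counts and those with the highest and lowest change at FR8 in each complex, those with the smallest p in each comparison, the succinate dehydrogenase subunits, isoform pairs, the subunit c genes, COX7A2L, ATP5IF1 and the extremes of each neighbouring list. The values of 1 subunit, which is included in all counts, are not reported here. Other subunits named were chosen after their values were seen. The members and lists were chosen with earlier results of these data known.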

Additional observations from a re-analysis of the deposited data

Results flagged for a closer look

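In groups of 4 or 5 libraries, which here are the CPF groups, 18 of 172 combinations of subunit and group held a library far from the others. For a single combination chance gives about 1 in 20. The combinations share the same few libraries and are not independent, so their count cannot be weighed against that rate. At FR20 10 of them were the highest value and came from CPF animal 7, at 61.4 CPM for NDUFA11, 104.9 CPM for NDUFAB1, 44.6 CPM for NDUFB7, 102.4 CPM for NDUFS5, 89.2 CPM for UQCR11, 356.2 CPM for COX4I1, 245.3 CPM for COX5B, 144.2 CPM for COX8A, 131.9 CPM for ATP5IF1 and 274.3 CPM for ATP5PO. By the labels this animal died. The same animal was highest for SDHC at FR2 (249 CPM). CPF animal 8 was lowest for NDUFB8 at FR2 (70.0 CPM) and for NDUFS4 at FR8 (35.8 CPM), and highest for SDHD at FR20 (236.1 CPM). CPF animal 18 was highest at FR2 for NDUFS5 (94.8 CPM) and UQCR11 (83.7 CPM), CPF animal 13 at FR20 for COX7A1 (49.97 CPM), and CPF animal 3 at FR2 for COX7A2L (130.4 CPM).

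In the 3 Baseline libraries left out, of FS animals 17, 19 and 21, 29 of the 43 subunits lay above all 15 Baseline libraries used, 3 (SDHC, COX7A2L and COX8A) lay below all of them, and 11 did neither in all 3. COX6A2 stood there at 248.8, 335.5 and 230.0 CPM on their own totals, against 5.3 to 16.1 CPM in the libraries used, and COX7A1 at 307.1, 366.9 and 219.6 CPM, against 31.8 to 80.5 CPM. The striated muscle markers summed to 45770 to 53280 CPM in these 3 libraries. Their part in the subunit levels was not tested.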

How the results depend on the processing

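Of the 65 subunit calls, all 65 kept direction and threshold in DESeq2, 63 with relative log expression size factors, 63 without the libraries of FS animal 11, 59 by the likelihood ratio test, 53 with no filter, 36 with no replicate block, 33 with the 3 left-out Baseline libraries and 30 with library totals. The cause was not tested. With no replicate block, 9 subunits passed at FR2 and 10 at FR20 against B, 5 from FR2 to FR8 and 1 from FR8 to FR20 in FS animals, and 0 in CPF animals at FR8. Requiring a change of 2-fold as well left 0 at FR2, 1 at FR8 and 1 at FR20, 0 and 0 between later times, and 1 in CPF animals at FR8. With no filter 6 passed from FR2 to FR8, 2 from FR8 to FR20 and 1 in CPF animals at FR8, and with a summed CPM of 3 as the filter the count from FR8 to FR20 was 3. With the 3 left-out Baseline libraries 4 and 1 passed between later times and 0 in CPF animals at FR8. The likelihood ratio test gave 1 there. Library totals gave 2 from FR8 to FR20 and 6 in CPF animals at FR8. Library totals without the libraries of animal 11, a setting chosen after seeing the data, gave 25 and 27 in FS animals at FR8 and FR20, 2 from FR8 to FR20, and 7 and 2 in CPF animals at FR8 and FR20.

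Leaving out each animal in turn gave 12 to 18 subunits at FR2, 12 to 20 at FR8 and 13 to 19 at FR20 in FS animals, 4 to 11 from FR2 to FR8 and 1 to 9 from FR8 to FR20, 0 to 4 at FR8 and 0 to 1 at FR20 in CPF animals, and 0 to 0 in the other comparisons.

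At FR20 12 falls no longer passed with library totals and had values just above 0, none of which passed as a rise, with log2 changes of 0.1261 for NDUFA10, 0.0048 for NDUFA11, 0.0612 for NDUFA2, 0.0689 for NDUFB1, 0.0540 for NDUFB7, 0.0725 for NDUFS4, 0.0552 for NDUFS5, 0.1162 for NDUFV1, 0.0466 for UQCR10, 0.1139 for COX4I1, 0.1611 for COX7A2L and 0.0094 for COX8A. Without the libraries of animal 11 as well the value of NDUFA11 was −0.0026, and the others were 0.1263 for NDUFA10, 0.0575 for NDUFA2, 0.0547 for NDUFB1, 0.0482 for NDUFB7, 0.0710 for NDUFS4, 0.0490 for NDUFS5, 0.1157 for NDUFV1, 0.0418 for UQCR10, 0.1080 for COX4I1, 0.1528 for COX7A2L and 0.0074 for COX8A. With the 3 left-out Baseline libraries, UQCRC2 changed by −0.0012 at FR8 and −0.0005 at FR20 and COX5A by −0.0121 at FR8. Depth was at least 6877117 counts per library, and intervals give the uncertainty of an estimated change, not the spread of levels between animals.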
